A study of Mus musculus with 20 samples.

Results

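The comparison set livers of mice that drank cadmium chloride for 9 months against livers of mice that drank it for 3 months. Its members were the 6 input libraries of exposed livers, chosen by their dose and time labels, out of 10 input libraries and 20 libraries in the series. Both groups had 3 libraries of wild-type (WT) liver, and all 6 libraries came from livers exposed to CdCl2 at 100 mg/L, so the groups differ in the length of exposure and in whatever else went with it. The labels give no strain, sex or age, so length of exposure and age cannot be told apart. Nothing in them states that a replicate is its own animal, and p-values therefore measure only the spread between these samples, which may be technical. The study profiled m6A, a methylated adenosine of RNA, in exposed and control livers at both times. An input library holds the fragmented RNA before the antibody pull-down and so reports RNA abundance. The controls were 2 wild-type livers labelled as control at each time.

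Cadmium is taken up by hepatocytes, where metallothioneins bind it. Hepatocytes fold and export most plasma proteins through the endoplasmic reticulum (ER), burn fatty acids in mitochondria and peroxisomes under the nuclear receptor PPARA, and make glucose between meals. When unfolded proteins build up in the ER, the transcription factors ATF6 and XBP1 switch on chaperone genes, and injury or inflammation switches on acute-phase genes such as serum amyloid A.

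Each library had 4545353 to 7697203 counts over genes, and 12192 genes passed the filter on low counts. Levels below are counts per 1000000 counts (CPM) after TMM scaling. The liver label held, since albumin (Alb) stood at 46383 to 57635 CPM and the 25 hepatocyte markers summed to between 124551 and 138751 CPM in all 6 libraries. Pearson's r of log2 CPM was between 0.881 and 0.917 within groups and between 0.879 and 0.921 across them, so the libraries did not separate by time. The 9-month library 1 stood apart in its pancreas list, which summed to 2264 CPM against 8.80 to 30.3 CPM in the other exposed libraries. Of 9 lists of markers of other cell types, the adipose list alone had groups that did not overlap, at 81.0, 657 and 691 CPM at 3 months and 1376, 874 and 1495 CPM at 9 months (two-sided exact permutation p = 0.1, the smallest that 3 against 3 allows). Its sum was mostly Car3, a carbonic anhydrase that hepatocytes also make, while Adipoq and Lep had no counts in any library and Plin1 had counts in 1.

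How many genes differed beyond the spread between libraries depended on the test. In edgeR's quasi-likelihood test, 4 of 12192 genes passed an adjusted p of 0.05, which is 0.0328%, with 1 higher at 9 months (0.0082%) and 3 lower (0.0246%). DESeq2 called 72 genes with these 4 among them, limma voom called 4 that included Lars2 and Xkrx but neither Saa1 nor Alyref, and edgeR without a filter on low counts called 200. With counts summed over transcripts or with the dispersion taken from all 10 input libraries, edgeR called none. At an unadjusted p under 0.05 there were 1064 genes (8.73%), 504 higher (4.13%) and 560 lower (4.59%). The groups did not overlap for 1802 genes (14.8%), 903 higher (7.41%) and 899 lower (7.37%). The 4 genes were the acute-phase gene Saa1, the mitochondrial leucyl-tRNA synthetase gene Lars2, the X-linked gene Xkrx of the XK-related family, and Alyref, whose protein hands spliced mRNA to the export machinery.

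Saa1 (serum amyloid A, gene ID 20208, chromosome 7, 46740497 to 46742942 in mm10) had 0.910, 2.34 and 3.43 CPM at 3 months and 96.0, 92.7 and 14.1 CPM at 9 months. All 9-month libraries were above all 3-month ones, and 9-month library 3 was far below the other two. It rose by 4.90 ± 0.67 (log2, SE), and edgeR's adjusted p was 0.0298. These counts are 49 at 3 months and 1258 at 9 months over the 3 libraries, and the Saa genes are near-identical copies between which reads may be split. Lars2 (chromosome 9, 123366916 to 123462666) had 129, 112 and 110 CPM at 3 months and 36.8, 17.1 and 23.1 CPM at 9 months. The groups lay well apart, and the log2 fold change was -2.19 ± 0.28 (edgeR, adjusted p = 0.0298). Its span overlaps the predicted gene LOC108167693, and with the strand setting not given, reads of the pair cannot be told apart.

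Xkrx (chromosome X, 134149045 to 134161928) ranked 6th of all genes tested by mean CPM of the reads assigned to it. It had 20230, 14717 and 16605 CPM at 3 months and 7344, 5865 and 6696 CPM at 9 months, groups that did not overlap. The log2 fold change was -1.37 ± 0.18, with an edgeR adjusted p of 0.0298. Per length, the deposited values were 3911 to 4787 TPM at 3 months and 1520 to 2038 TPM at 9 months, where Alb had 17154 to 21359 TPM. The reads fell on 1 of its 6 annotated transcripts, and each of the other 5 had 0 to 3 counts per library. That transcript starts at 134149045 and the others at 134150273. Isoforms share reads here, so nearly all of these reads lay outside the sequence common to its transcripts. Whether they come from Xkrx mRNA was not tested, so the level and the fall are those of the assigned reads. Alyref (chromosome 11, 120594504 to 120598360) had 22.9, 26.2 and 29.4 CPM at 3 months and 5.42, 4.74 and 5.61 CPM at 9 months. Each group was tight and the gap between them wide, with a log2 fold change of -2.31 ± 0.34 (edgeR, adjusted p = 0.0420). The 4 calls depended on single libraries. No gene was called without 3-month library 1, without 3-month library 2 or without 9-month library 2, while 9 were called without 3-month library 3, Lars2 alone without 9-month library 1 and Saa1 alone without 9-month library 3. Over these 6 fits the log2 fold change of Saa1 stayed between 4.54 and 5.38, that of Lars2 between -2.53 and -1.96, that of Xkrx between -1.47 and -1.24 and that of Alyref between -2.40 and -2.21.

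**Figure D1:**
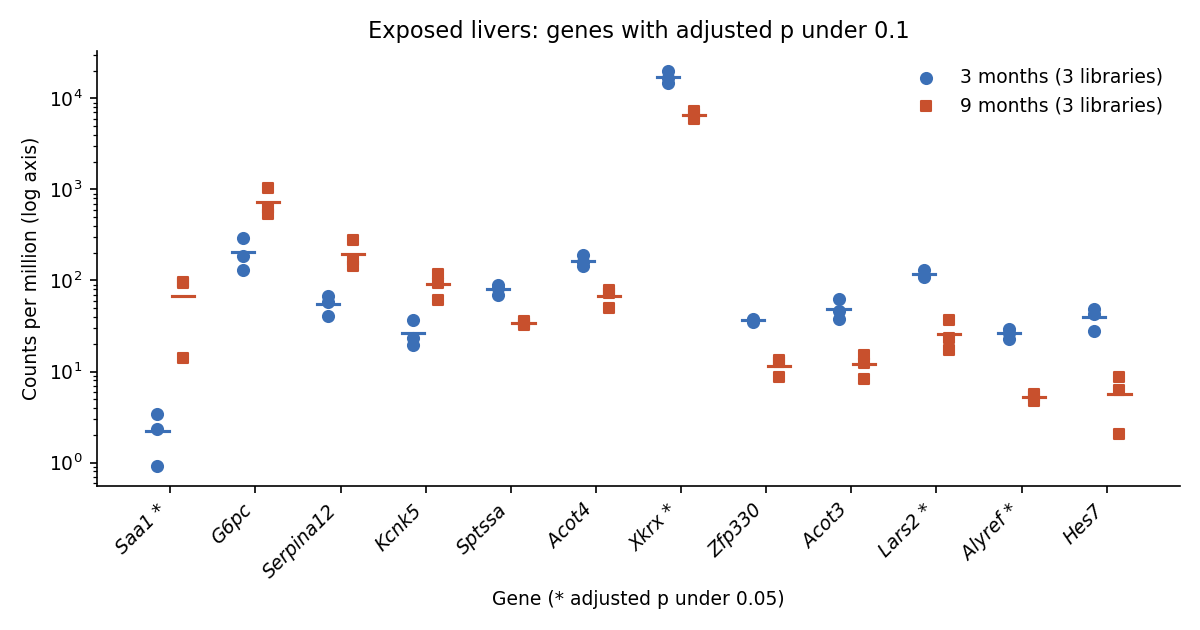
Levels in CPM (log axis) of the 12 genes with an adjusted p under 0.1, with 1 point per exposed library and a bar at each group's mean. Circles are 3 months and squares 9 months, an asterisk marks the 4 genes with an adjusted p under 0.05, and no gene has groups that overlap.

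Another 8 genes had an adjusted p between 0.05 and 0.1, which makes 12 (0.0984%) in all, 4 higher (0.0328%) and 8 lower (0.0656%). G6pc, the catalytic subunit of glucose-6-phosphatase and the last step of glucose release, had 132, 188 and 291 CPM at 3 months and 541, 1025 and 626 CPM at 9 months. Its log2 fold change was 1.84 ± 0.31, with an edgeR adjusted p of 0.0779. Serpina12, which encodes the secreted serpin vaspin, had 40.9, 68.2 and 58.1 CPM at 3 months and 143, 169 and 281 CPM at 9 months (log2 fold change 1.82 ± 0.29, edgeR adjusted p = 0.0595), and overlaps the predicted gene Gm31271. The potassium channel gene Kcnk5 had a log2 fold change of 1.79 ± 0.30. The peroxisomal acyl-CoA thioesterase genes Acot3 and Acot4 stood at -2.03 ± 0.31 and -1.29 ± 0.23. Hes7, a repressor best known from the segmentation clock of the embryo, stood at -2.78 ± 0.45, with reads on a single predicted isoform and at most 1 count on its curated transcript. Sptssa, a small subunit of the enzyme that starts sphingolipid synthesis, stood at -1.25 ± 0.21, and the zinc finger gene Zfp330 at -1.65 ± 0.29. In all 8 the groups did not overlap.

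The 12 genes with the smallest p in each direction were taken among those with groups apart and a mean of at least 5 CPM. None of those not yet described passed the threshold. On the higher side were Mup9 and Mup7 (major urinary proteins), Cyp26a1, which breaks down retinoic acid, Slc22a7, an organic anion transporter, Apoa1, the main protein of HDL, and the genes Manf, Calr and Ppp1r3b described with their groups. Slc22a7 had 16.4, 39.96 and 44.3 CPM at 3 months against 163, 83.1 and 84.6 CPM at 9 months, and Apoa1 had 1159, 1377 and 1036 CPM against 1798, 2673 and 2432 CPM. Cyp26a1 had 1.52, 5.24 and 2.11 CPM against 35.5, 7.90 and 25.4 CPM. On the lower side were Arsb, a lysosomal sulfatase (log2 fold change -1.13 ± 0.21), Tmed5, a cargo receptor between ER and Golgi (-1.35 ± 0.25), Cyp4a10, described with the PPARA targets, and the predicted gene Gm42127 (-1.29 ± 0.26), which overlaps Hnrnpd.

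ER chaperone and folding genes had mostly higher values at 9 months. Of 28 genes on the ER stress list 26 were tested, 21 had a positive log2 fold change and 5 a negative one, and their median was 0.44 against 0.00 over all genes tested. None passed an adjusted p of 0.05 in edgeR. At an unadjusted p under 0.05 there were 9, all higher, and 13 had groups that did not overlap, all higher. Over all genes tested, 4.13% were higher at that p and 7.41% had groups apart on the higher side. Calreticulin (Calr), a calcium-binding chaperone of glycoproteins, had 133, 194 and 126 CPM at 3 months and 357, 307 and 265 CPM at 9 months. The disulphide isomerases Pdia6, Pdia4 and Pdia3, which form and rearrange disulphide bonds, had log2 fold changes of 1.04 ± 0.24, 0.89 ± 0.22 and 0.89 ± 0.21. Hspa5 (BiP), the main ER chaperone of the HSP70 family, had 310, 432 and 380 CPM at 3 months and 654, 711 and 443 CPM at 9 months. For each of these 5 genes the 9-month libraries all lay above the 3-month ones.

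The secreted ER stress protein gene Manf had 2.43, 7.72 and 3.96 CPM at 3 months and 23.1, 22.3 and 18.1 CPM at 9 months, a log2 fold change of 2.16 ± 0.45 (edgeR, adjusted p = 0.214). Among the cochaperones and their partners, Dnajb11 stood at 0.99 ± 0.36, Sdf2l1 at 1.86 ± 0.77, Creld2 at 1.07 ± 0.51 and Herpud1, which serves the removal of misfolded proteins, at 0.78 ± 0.29. Not all members had groups apart. Hsp90b1 (GRP94), the ER member of the HSP90 family, stood at -0.06 ± 0.20, the chaperone gene Hyou1 at 0.35 ± 0.22 and Xbp1 at -0.32 ± 0.20, with overlapping groups in each. The sensor gene Atf6 had 49.1, 52.8 and 50.5 CPM at 3 months and 62.8, 57.2 and 82.9 CPM at 9 months, and Atf4, of the integrated stress response, had 33.7, 28.8 and 27.97 CPM against 36.2, 36.0 and 40.3 CPM, so both had groups that did not overlap, on the higher side. The exocrine pancreas markers were high in 9-month library 1. Without that library the list had a median of 0.44 and 8 of 28 members at an unadjusted p under 0.05, all higher. The 9 such members became 7 to 9 when any 1 library was left out.

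**Figure D2:**
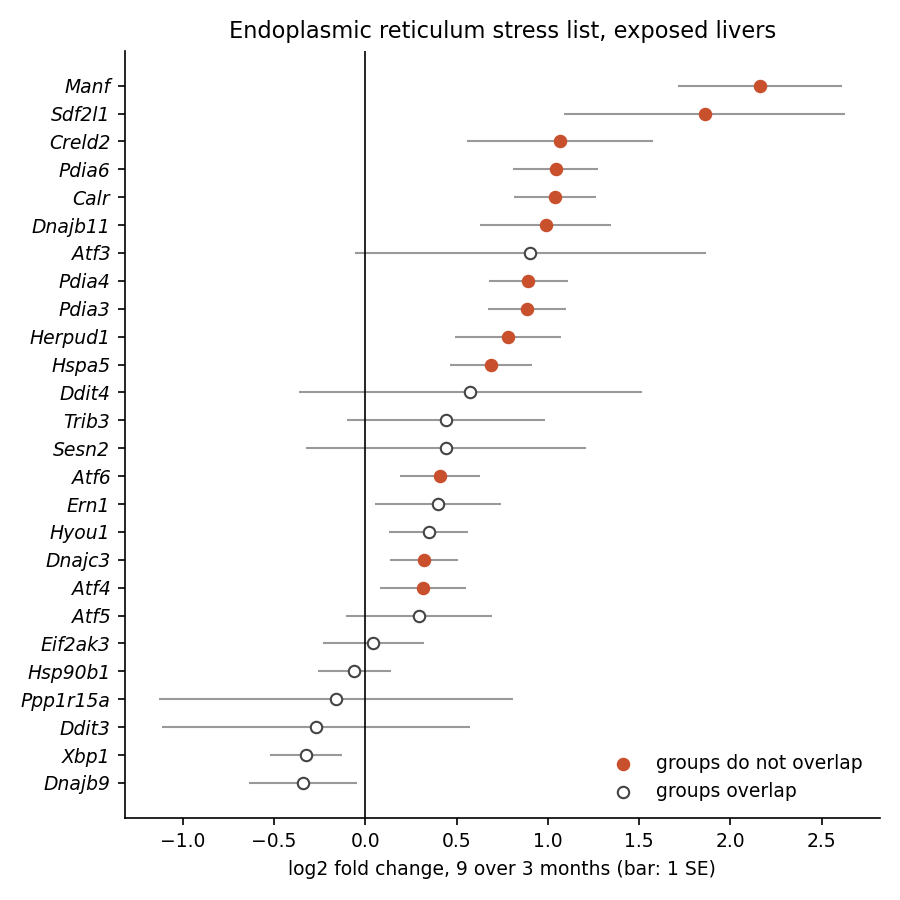
Log2 fold change of the 26 tested genes of the ER stress list, 9 over 3 months of exposure, with bars of 1 SE. Filled points are the 13 genes whose groups did not overlap, all to the right of 0, and open points are genes whose groups overlapped, Hsp90b1, Xbp1 and Dnajb9 among them.

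The ER stress element ERSE, the site at which ATF6 and the factor NF-Y meet, is spelled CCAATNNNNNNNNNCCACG. In the 250 bases before the gene start, on either strand, RefSeq's GRCm38.p6 sequences hold it in 37 of 32851 promoters (0.113%) and in 17 of the 9597 tested genes that have a promoter entry (0.177%). It was found in 6 of the 23 ER list genes with an entry, namely Hspa5, Hsp90b1, Calr, Pdia6, Dnajc3 and Creld2. The list was chosen to hold ER stress genes, among them chaperone genes of the kind ATF6 switches on. A larger share than over all genes was therefore built into the choice and is no result of these data. The shorter element ERSE-II, ATTGGNCCACG, which holds the first part of ERSE inverted and the same CCACG, was in 10 promoters (0.0304%), among them that of Herpud1. Of the 6 genes with ERSE, 5 had groups that did not overlap while those of Hsp90b1 overlapped, so genes with and without such a difference carried it. Over the whole list 13 of 26 tested members had groups apart, all higher, and over all genes tested 7.41% did on that side. The promoters of Calr (chr8:84846932-84847181, minus strand), Pdia6 (chr12:17266339-17266588, plus strand), Hspa5 (chr2:34771840-34772089, plus strand) and Hsp90b1 (chr10:86705445-86705694, minus strand) are shown to set 3 genes of the first kind beside 1 of the second, with ERSE, as found on either strand, in capitals.
Calr: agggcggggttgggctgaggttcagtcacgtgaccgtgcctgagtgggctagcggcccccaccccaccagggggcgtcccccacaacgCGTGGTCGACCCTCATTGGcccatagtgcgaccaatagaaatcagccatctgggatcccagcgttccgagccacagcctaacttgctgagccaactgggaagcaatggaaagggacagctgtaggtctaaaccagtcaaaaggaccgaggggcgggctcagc
Pdia6: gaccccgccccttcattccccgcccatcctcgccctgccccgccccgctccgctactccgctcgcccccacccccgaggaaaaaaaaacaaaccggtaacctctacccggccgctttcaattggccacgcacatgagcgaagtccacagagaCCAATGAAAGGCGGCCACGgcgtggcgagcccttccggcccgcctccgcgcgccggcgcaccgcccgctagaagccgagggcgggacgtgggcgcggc
Hspa5: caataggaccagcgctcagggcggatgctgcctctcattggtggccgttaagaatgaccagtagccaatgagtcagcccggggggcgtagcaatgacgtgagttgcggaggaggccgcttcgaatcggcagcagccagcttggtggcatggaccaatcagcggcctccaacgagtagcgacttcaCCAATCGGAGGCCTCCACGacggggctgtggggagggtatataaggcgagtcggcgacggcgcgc
Hsp90b1: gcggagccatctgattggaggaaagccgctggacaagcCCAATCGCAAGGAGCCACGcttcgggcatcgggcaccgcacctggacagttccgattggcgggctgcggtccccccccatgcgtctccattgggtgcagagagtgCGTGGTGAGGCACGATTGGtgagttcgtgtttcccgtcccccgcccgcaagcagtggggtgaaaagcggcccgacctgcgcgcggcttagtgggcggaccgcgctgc
These letters are a description of the promoters and say nothing of whether a factor bound there.

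PPARA targets had mostly lower values at 9 months. All 25 genes of the list were tested, 23 had a negative log2 fold change and 2 a positive one, and the median was -0.58. None passed an adjusted p of 0.05, and 9 had an unadjusted p under 0.05, all lower, against 4.59% lower over all genes tested. Groups did not overlap for 5 on the lower side and 2 on the higher side, Acaa2 and Acadvl. Over all genes tested these shares were 7.37% and 7.41%. Acot3, which releases fatty acids from acyl-CoA in peroxisomes, had 38.1, 45.9 and 62.5 CPM at 3 months and 12.4, 8.37 and 15.2 CPM at 9 months, and its neighbour in function Acot4 had 188, 145 and 161 CPM against 49.5, 72.8 and 79.0 CPM. Cyp4a10, an omega-hydroxylase of fatty acids, had 1273, 708 and 210 CPM at 3 months and 76.9, 159 and 134 CPM at 9 months (log2 fold change -2.57 ± 0.50, edgeR adjusted p = 0.160). The 3-month libraries were above the 9-month ones for these 3 genes.

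Other members varied most among the 3-month libraries. The omega-hydroxylase gene Cyp4a14 had 14926, 6884 and 639 CPM at 3 months and 777, 526 and 706 CPM at 9 months, so 3-month library 3 lay among the 9-month ones. Ehhadh, an enzyme of peroxisomal beta-oxidation, had 10455, 4080 and 1066 CPM at 3 months and 592, 1164 and 1888 CPM at 9 months. Acot1 and Acot2, close copies in cytosol and mitochondria, stood at -1.74 ± 0.55 and -2.29 ± 0.73. Ppara itself had 731, 731 and 740 CPM at 3 months and 588, 580 and 718 CPM at 9 months, a log2 fold change of -0.22 ± 0.18. Which library was in the group mattered. Without 3-month library 1 the median of the list was -0.27 and 6 members had an unadjusted p under 0.05, and without 3-month library 3 the median was -0.77, 15 members had such a p and 3 passed the adjusted threshold (Cyp4a10, Cyp4a14 and Cyp4a31). Without 9-month library 1 the median was -0.36.

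**Figure D3:**
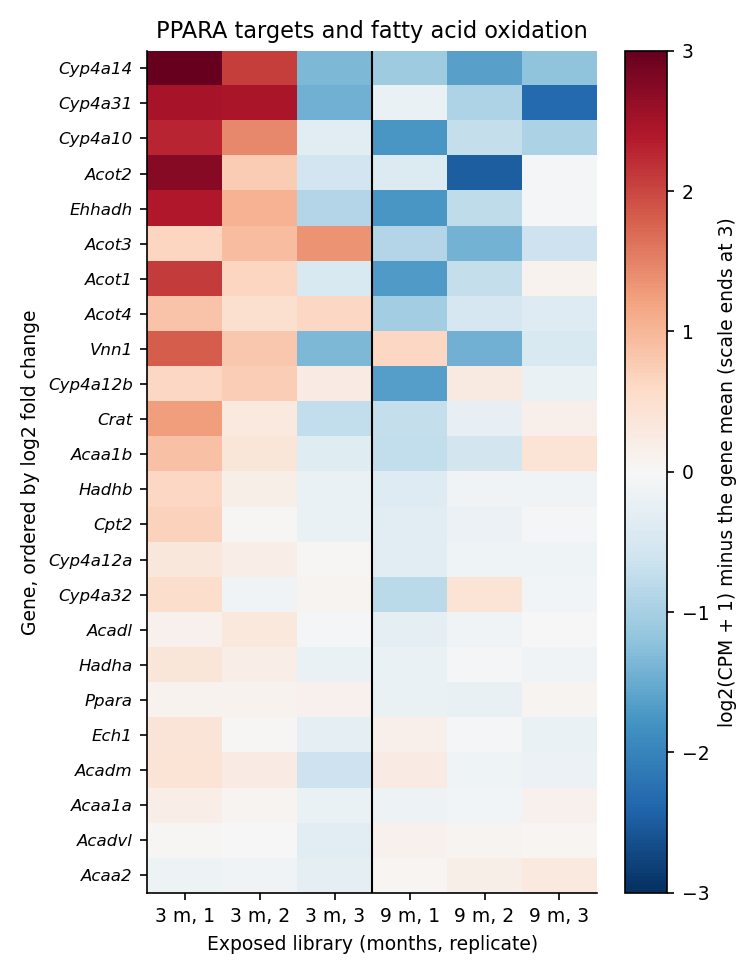
Levels of 24 of the 25 PPARA targets and fatty acid oxidation genes in the 6 exposed libraries, as log2(CPM + 1) minus the mean of the gene over the 6, with genes ordered by log2 fold change. Red is above and blue below the gene's mean; 3-month libraries 1 and 2 are red for most of the upper genes, and 3-month library 3 is blue or near white for most of them, with Acot3, Acot4 and Cyp4a12b as exceptions.

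Genes that store and handle fat droplets also had mostly negative values, with 16 of 19 tested members below 0 and a median of -0.31. That median was smaller in size than the list's SD between replicates, 0.35. At an unadjusted p under 0.05 there were 2 members, all lower, against 4.59% lower over all genes tested. Groups were apart for 1 member on each side, and over all genes tested for 7.41% on the higher side and 7.37% on the lower. The droplet coat gene Plin2 (gene ID 11520, shown as Plin2_11520 where the symbol repeats) had 1515, 434 and 284 CPM at 3 months and 287, 331 and 450 CPM at 9 months, so only 3-month library 1 was high. Plin3, another droplet coat gene, had 39.3, 45.1 and 35.8 CPM against 21.0, 22.4 and 26.8 CPM, with no overlap (log2 fold change -0.77 ± 0.25). On the synthesis side, Thrsp, which promotes lipogenesis, had 3.18, 14.6 and 83.1 CPM against 85.2, 238 and 133 CPM, and the lipogenic regulator gene Srebf1 stood at 0.82 ± 0.28. Of 19 genes of fatty acid and triglyceride synthesis, 11 were above 0 and 8 below, with a median of 0.13.

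Genes of sugar metabolism had mostly positive values. Of 17 tested genes of glycolysis and glycogen, 14 were above 0, with a median of 0.34. An unadjusted p under 0.05 was found for 5, all higher, against 4.13% higher over all genes tested. Ppp1r3b, which anchors protein phosphatase 1 to glycogen, had 72.5, 115 and 75.9 CPM at 3 months and 159, 211 and 186 CPM at 9 months (log2 fold change 1.08 ± 0.23). Pygl, the liver glycogen phosphorylase, had 88.3, 134 and 130 CPM against 208, 182 and 239 CPM, and ketohexokinase (Khk), which commits fructose to metabolism, had 138, 207 and 176 CPM against 408, 257 and 402 CPM. In these 3 genes the groups did not overlap. Pklr, pyruvate kinase, stood at 0.81 ± 0.33 with overlapping groups.

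Gluconeogenesis had 12 of 17 tested members above 0 and a median of 0.20. At an unadjusted p under 0.05, where 4.13% of all genes tested were higher, there were 4, all higher. Besides G6pc these were Pck1, which makes phosphoenolpyruvate, and the amino acid enzymes Tat and Sds. Pck1 had 439, 766 and 1035 CPM at 3 months and 1284, 2668 and 1289 CPM at 9 months, and Tat had 1105, 1160 and 1472 CPM against 1863, 6108 and 1767 CPM. Both had groups that did not overlap, and 9-month library 2 was the highest in each. Without that library the median of the gluconeogenesis list was -0.02. Tat is also a target of the glucocorticoid receptor, a list with 16 of 19 members above 0 and a median of 0.42, or 0.16 without 9-month library 2. Of its members Tsc22d3 (GILZ) stood at 0.76 ± 0.32 and the clock gene Per1 at 0.59 ± 0.39, both with overlap. Immediate early genes, which respond within minutes to many stimuli, had 12 of 20 above 0 with a median of 0.43, and 5 at an unadjusted p under 0.05, all higher, such as Jun (0.72 ± 0.26) and Rhob (0.58 ± 0.22).

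Acute-phase and other plasma protein genes had mostly positive values, with Saa1 the single member of any list that passed the threshold. Of 22 tested acute-phase genes 16 were above 0, the median was 0.23, and 6 had an unadjusted p under 0.05, all higher. Over all genes tested, 4.13% were higher at that p. Saa3 had counts in 1 of 3 libraries at 3 months and 3.82, 2.05 and 2.91 CPM at 9 months. The inter-alpha-trypsin inhibitor genes Itih3 and Itih4 had 319, 317 and 270 CPM against 510, 457 and 431 CPM, and 1516, 1572 and 1650 CPM against 2578, 1969 and 1951 CPM. Lcn2 (lipocalin 2) had 1.82, 1.52 and 0 CPM at 3 months and 18.96, 5.21 and 0.208 CPM at 9 months, and haptoglobin (Hp) had 1613, 997 and 701 CPM against 2116, 1946 and 1221 CPM, both with overlap. The fibrinogen gene Fgg stood at 0.23 ± 0.17. Without 9-month library 1 the acute-phase list had 2 members at an unadjusted p under 0.05, and without 9-month library 3 it had 10.

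Complement and coagulation genes had 27 of 34 members above 0 and a median of 0.25. There were 5 at an unadjusted p under 0.05 and 10 with groups that did not overlap, all higher. Over all genes tested these shares were 4.13% and 7.41% on the higher side. Among them were C8b of the membrane attack complex (log2 fold change 0.73 ± 0.23), protein C (Proc, 0.64 ± 0.20), factor XI (F11, 0.74 ± 0.28) and plasminogen (Plg, 0.51 ± 0.19). The hepatocyte marker list had 15 of 25 members above 0 and a median of 0.14, and of its members Apoe, an apolipoprotein that clears remnants, stood at 0.51 ± 0.18.

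Genes that male mouse livers express more strongly had 14 of 22 tested members above 0 and a median of 0.44. At an unadjusted p under 0.05 there were 7, all higher, against 4.13% higher over all genes tested. Mup7 had 3022, 4074 and 1969 CPM at 3 months and 5648, 20789 and 7737 CPM at 9 months, and Mup12 had 37.6, 65.3 and 49.3 CPM against 147, 75.7 and 115 CPM. The steroid enzyme gene Hsd3b5 had 5.91, 75.8 and 122 CPM against 198, 160 and 190 CPM. In these 3 genes the 9-month libraries were all higher. Mup genes are near-identical copies, so their separate values are uncertain. Without 9-month library 2, the highest for Mup7, the median of the list was 0.06, with 4 members at an unadjusted p under 0.05 above 0 and 3 below. Female-biased genes were mostly too low to test, with 6 of 19 in the test and 5 of those below 0. Fmo2 among them had 60.1, 27.4 and 36.7 CPM at 3 months and 18.5, 20.1 and 11.6 CPM at 9 months. The Y-linked gene Ddx3y had counts in every one of the 6 libraries, 152 to 309 CPM.

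Bile acid genes split. Cyp8b1, which sets the share of cholic acid, had 675, 699 and 435 CPM at 3 months and 224, 378 and 243 CPM at 9 months, groups that did not overlap (log2 fold change -1.10 ± 0.26, edgeR adjusted p = 0.252). Nr0b2 (SHP), the repressor of bile acid synthesis, had 6.22, 18.5 and 14.4 CPM against 19.8, 27.6 and 25.2 CPM. The sterol exporter genes Abcg5 and Abcg8 stood at 0.66 ± 0.25 and 0.57 ± 0.24, and Cyp7b1, of the alternative pathway, at 0.89 ± 0.35. Cyp7a1, the rate-limiting enzyme of bile acid synthesis, ranged from 27.4 to 704 CPM at 3 months and from 100 to 398 CPM at 9 months. Of the 21 tested genes 12 were above 0 and 9 below, with a median of 0.15.

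Genes marking the position of hepatocytes along the lobule had 6 members at an unadjusted p under 0.05 above 0 and 3 below, of 25. Over all genes tested these shares were 4.13% and 4.59%. Groups were apart for 5 members on the higher side and 1 on the lower, and over all genes tested for 7.41% and 7.37%. Around the central vein, the ammonia transporter gene Rhbg had 0.152, 0.689 and 0.132 CPM at 3 months and 6.37, 7.90 and 4.37 CPM at 9 months. In 3-month libraries 1 and 3 it was below 3 counts. It passed the filter on low counts only through the 9-month libraries, so its separation is no support. Glutamine synthetase (Glul) had 320, 447 and 510 CPM against 608, 636 and 643 CPM, and Lect2 had 10.8, 48.0 and 43.7 CPM against 91.1, 54.3 and 83.4 CPM, and for all 3 genes the 9-month libraries were higher. Oat, another pericentral enzyme, had 799, 492 and 232 CPM against 177, 349 and 251 CPM. Among drug-metabolising P450 genes, with 11 of 22 on each side of 0, Cyp3a11 had 6775, 6063 and 6695 CPM against 4174, 5226 and 3365 CPM, without overlap. It was the only tested member of that list with groups apart, against 14.8% of all genes tested.

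Apart from the adipose list described above, the summed levels of the lists for other cell types overlapped between the groups. In such bulk tissue, fewer cells of a type and less RNA per cell cannot be told apart. The Kupffer cell and macrophage list had 14 of 20 tested members above 0 and a median of 0.28, but summed to 671, 965 and 715 CPM at 3 months and 1032, 876 and 688 CPM at 9 months. Its complement gene C1qa had 6.22, 10.3 and 5.28 CPM against 26.6, 16.1 and 17.3 CPM, without overlap, and the macrophage gene Cd5l stood at 0.79 ± 0.32 with overlap. These were its 2 members higher at an unadjusted p under 0.05, and 1 member was lower. C1qa was the only tested member with groups apart, and over all genes tested 7.41% were apart on the higher side. The endothelial list had 11 of 19 tested members above 0 and 8 below, with a median of 0.09, and summed to 659, 688 and 664 CPM at 3 months and 726, 655 and 640 CPM at 9 months. Its members with the smallest p were Tek, a receptor of angiopoietins, at -0.72 ± 0.30 and the junction cadherin gene Cdh5 at -0.75 ± 0.33. Matrix genes had no member of 24 at an unadjusted p under 0.05.

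Interferon-response genes had 10 of 23 members above 0 and 13 below. Ifit2, which binds foreign RNA, had 13.04, 8.27 and 9.24 CPM at 3 months and 1.27, 2.37 and 3.53 CPM at 9 months, and Irf9, a subunit of the interferon-activated factor ISGF3, had 76.1, 66.8 and 52.9 CPM against 42.4, 42.8 and 39.3 CPM. The restriction factor gene Bst2 had 11.2, 13.9 and 6.60 CPM against 27.7, 16.1 and 16.4 CPM, on the opposite side. In antigen presentation, B2m, the light chain of MHC class I, had 409, 486 and 572 CPM against 317, 272 and 294 CPM, and the class II gene H2-Ab1 had 3.64, 4.68 and 5.54 CPM against 9.08, 12.95 and 8.94 CPM. None of the 5 genes of this paragraph had overlapping groups, and none passed the threshold. Of the 23 interferon genes, groups were apart for 1 on the higher side and 3 on the lower. Of 19 tested antigen presentation genes it was 1 and 2. Over all genes tested groups did not overlap for 14.8%, so these lists stood near that share.

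**Figure D4:**
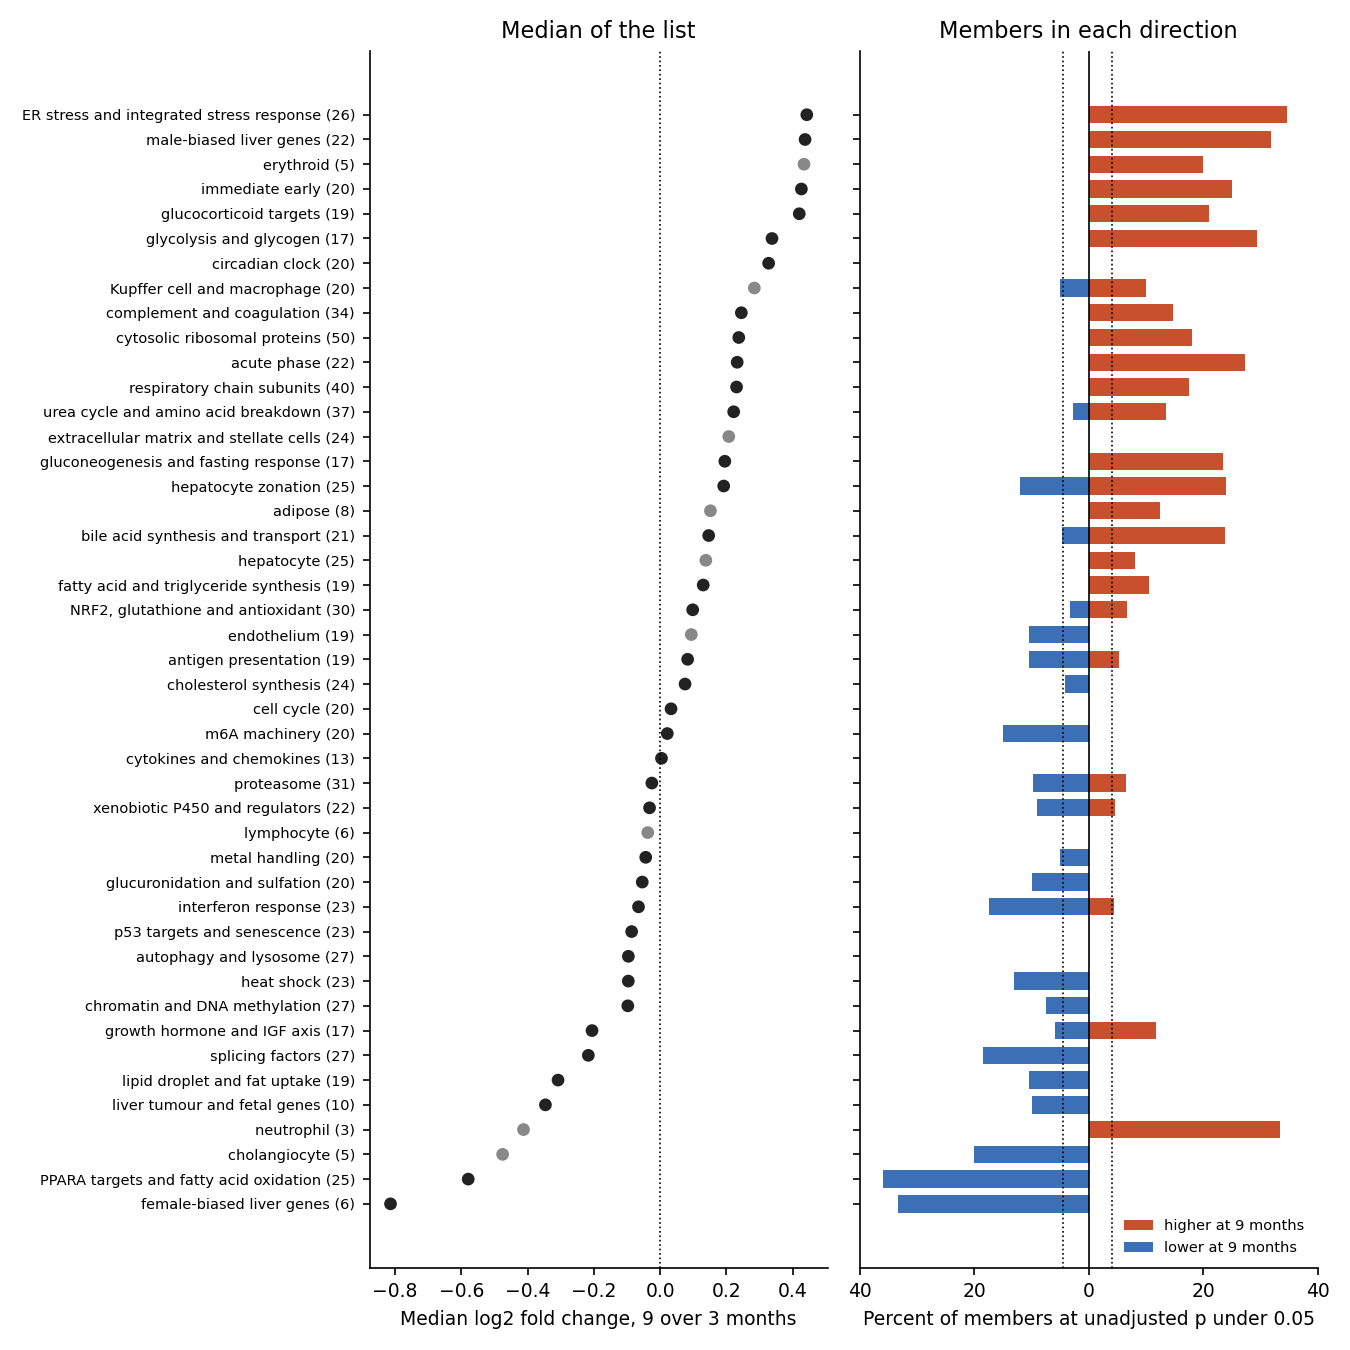
The 45 gene lists with 3 or more tested members (number in brackets), with cell type marker lists in grey. The left panel gives the median log2 fold change, 9 over 3 months of exposure, and the right panel the percent of members at an unadjusted p under 0.05 that were higher (right) or lower (left); dotted lines give the same values over all 12192 genes (median 0.00, 4.13% higher and 4.59% lower).

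Genes of the ribosome and the respiratory chain had small positive values, and splicing factor genes small negative ones. Of 50 cytosolic ribosomal protein genes, 38 were above 0, with a median of 0.24, and 9 had an unadjusted p under 0.05, all higher. Over all genes tested, 4.13% were higher at that p and 4.59% lower. Rpl8 had 49.1, 59.0 and 52.0 CPM at 3 months and 91.0, 102 and 87.5 CPM at 9 months. Of 40 nuclear genes for respiratory chain subunits, 31 were above 0 with a median of 0.23. Groups did not overlap for 13, all higher, against 7.41% on the higher side over all genes tested. Cox8a, of complex IV, had 23.4, 37.1 and 33.4 CPM against 61.6, 54.0 and 65.3 CPM. Of 27 splicing factor genes, 18 were below 0, with a median of -0.22, and 5 had an unadjusted p under 0.05, all lower. The SR protein gene Srsf3 had 192, 144 and 117 CPM against 68.3, 80.6 and 102 CPM, and the kinase gene Clk1, which phosphorylates SR proteins, had 117, 103 and 147 CPM against 74.7, 77.7 and 61.5 CPM. The list of mitochondrially encoded mRNAs had no member in the deposited table.

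Transcript length moved with these lists. Over 12029 genes the log2 fold change had a Spearman correlation of -0.167 with relative transcript length, taken from counts over TPM, and these genes share the same 6 libraries. From the shortest to the longest of 5 equal bins the median log2 fold change was 0.15, 0.08, 0.01, -0.08 and -0.10. At an unadjusted p under 0.05 the shortest bin had 186 genes higher and 66 lower of 2406. The longest had 38 higher and 161 lower of 2406. In the shortest bin lay 43 of the 50 ribosomal and 33 of the 40 respiratory genes. The shares over all genes tested are therefore not those of genes as short as these. After subtracting the median of each gene's own bin, the list medians were 0.09 for the ribosome, 0.10 for the respiratory chain and -0.15 for splicing factors. The same subtraction gave 0.45 for the ER stress list and -0.51 for the PPARA list. The part of length in these results was not tested further.

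The metal-handling and m6A lists had medians near 0, though single members did not. The metallothionein genes Mt1 and Mt2 had 120, 57.5 and 131 CPM and 24.9, 16.7 and 24.7 CPM at 3 months, against 57.0, 196 and 49.7 CPM and 10.2, 60.5 and 5.61 CPM at 9 months. The log2 fold changes were -0.03 ± 0.46 and 0.21 ± 0.64, and their signs turned with single libraries left out. Of 20 tested metal-handling genes 9 were above 0, with a median of -0.04, and the transferrin receptor gene Tfrc stood at -0.70 ± 0.29 with overlapping groups. Mettl3, the catalytic subunit of the m6A methyltransferase, had 11.5, 10.2 and 3.96 CPM against 7.01, 8.37 and 6.03 CPM, and its partner Mettl14 stood at 0.15 ± 0.87. Of the 20 tested genes of m6A writing, erasing and reading, 10 were above 0 and 10 below, with a median of 0.02. An unadjusted p under 0.05, which 4.59% of all genes tested had on the lower side, was found for 3, all lower. These were Cbll1 (Hakai), a member of the writer complex, with 9.25, 15.8 and 12.1 CPM against 4.78, 5.05 and 3.12 CPM, the reader gene Ythdf3 with 167, 169 and 216 CPM against 133, 116 and 118 CPM, and Mettl5, which methylates ribosomal RNA, with 37.9, 23.6 and 14.9 CPM against 14.5, 13.1 and 14.1 CPM.

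Clock genes had 14 of 20 members above 0, none at an unadjusted p under 0.05. Nr1d1 (REV-ERB alpha) had 55.0, 85.7 and 63.7 CPM at 3 months and 137, 30.5 and 118 CPM at 9 months. In the NRF2 and glutathione list 17 of 30 were above 0 with a median of 0.10, and Sod1, the cytosolic superoxide dismutase, had 29.1, 30.6 and 19.7 CPM against 37.6, 51.7 and 48.2 CPM. Cholesterol synthesis had a median of 0.08, cell cycle 0.03, the proteasome -0.02, p53 targets and senescence -0.09, and heat shock -0.10. Cell cycle and p53 targets had no member at an unadjusted p under 0.05.

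A small set of genes, 3 lower and 2 higher of the 12192 tested, had no counts at all at 1 time and more than 3 in each library of the other. They were picked by that rule, so the gap between their groups was set by the choice and is no test. They passed the filter on low counts only through the time at which they had counts. Spin4 (spindlin 4) and Xist, the RNA that silences an X chromosome, both on chromosome X, had 18, 55 and 30 counts and 21, 42 and 28 counts at 3 months and 0 in each 9-month library. Against a floor of 3 counts per library, Spin4 was at least 9.06-fold lower and Xist at least 8.04-fold lower at 9 months. Their edgeR adjusted p were 0.214 and 0.237. Xist overlaps its antisense gene Tsix. In control livers Xist had 0 and 41 counts at 3 months and 0 and 1 at 9 months, and Spin4 had 48 and 18 against 2 and 0. In the other direction, Atp4a, of the gastric proton pump, had 18, 23 and 8 counts at 9 months and none at 3 months (at least 6.46-fold higher). Ptpn22, a phosphatase of lymphocytes, had 10, 14 and 12 counts (at least 4.98-fold higher), while LOC101055995 was at least 4.36-fold lower. None of these passed the threshold either (edgeR, adjusted p = 0.323, 0.380 and 0.382).

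The same times were compared in control livers, which share no library with the exposed ones. In a fit over all 10 input libraries, the difference between the time effects of exposed and control livers passed an adjusted p of 0.05 for none of 14067 genes (0%) in edgeR, with 1325 (9.42%) at an unadjusted p under 0.05. DESeq2 gave 40 genes for the same difference. No time effect described here was therefore shown by the edgeR test to differ between exposed and control livers. Without the 3-month control library 2 the count was 321 and without the 3-month control library 3 it was 587, each with a single control library left at that time that is assumed to vary like the others. Of the 24 named genes with the smallest p in exposed livers, 18 had the same sign in controls, 9 of 12 on each side. Of the 12 with an adjusted p under 0.1 it was 8. The share of same-sign genes over all genes tested was not computed, so these counts have no background. Some of the control values were near 0, such as Cyp4a10 at -0.07 ± 0.64.

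In controls Alyref had 48.7 and 41.0 CPM at 3 months against 7.96 and 7.69 CPM at 9 months, a log2 fold change of -2.52 ± 0.40 beside -2.31 ± 0.34 in exposed livers. Control levels of Xkrx were 42183 and 8701 CPM at 3 months against 2903 and 2924 CPM at 9 months, and Arsb (1871 and 483 CPM against 174 and 182 CPM) and Sptssa (175 and 106 CPM against 43.6 and 35.1 CPM) were likewise on the lower side in both arms. Serpina12 was on the higher side in both, at 26.8 and 13.7 CPM against 218 and 154 CPM in controls. Saa1 had 7.17 and 6.92 CPM against 5.75 and 27.1 CPM in controls, and its difference between arms was 3.67 ± 1.10 (edgeR, adjusted p = 0.443). Acot3 had 6.11 and 1.29 CPM against 6.63 and 29.2 CPM in controls, opposite in sign to exposed livers, with a difference of -4.37 ± 0.93 (edgeR, adjusted p = 0.418). G6pc had 1293 and 776 CPM against 1148 and 669 CPM in controls. The 3-month exposed libraries, at 132 to 291 CPM, were the lowest. The 9-month exposed libraries 1 and 3, at 541 and 626 CPM, were also below every control library, and library 2 had 1025 CPM. The medians of the ER stress, PPARA and male-biased lists in controls were 0.14, 0.13 and -1.12. Of the male-biased genes, Mup7 had 2796 and 19997 CPM against 6887 and 5041 CPM in controls, with 3-month library 3 far the highest. Mup12, at 95.9 and 91.2 CPM against 54.6 and 23.5 CPM, did not have that library highest. No control median was computed with a library left out. Whether the pancreas RNA of 9-month control library 2 moved these medians was therefore not tested.

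**Figure D5:**
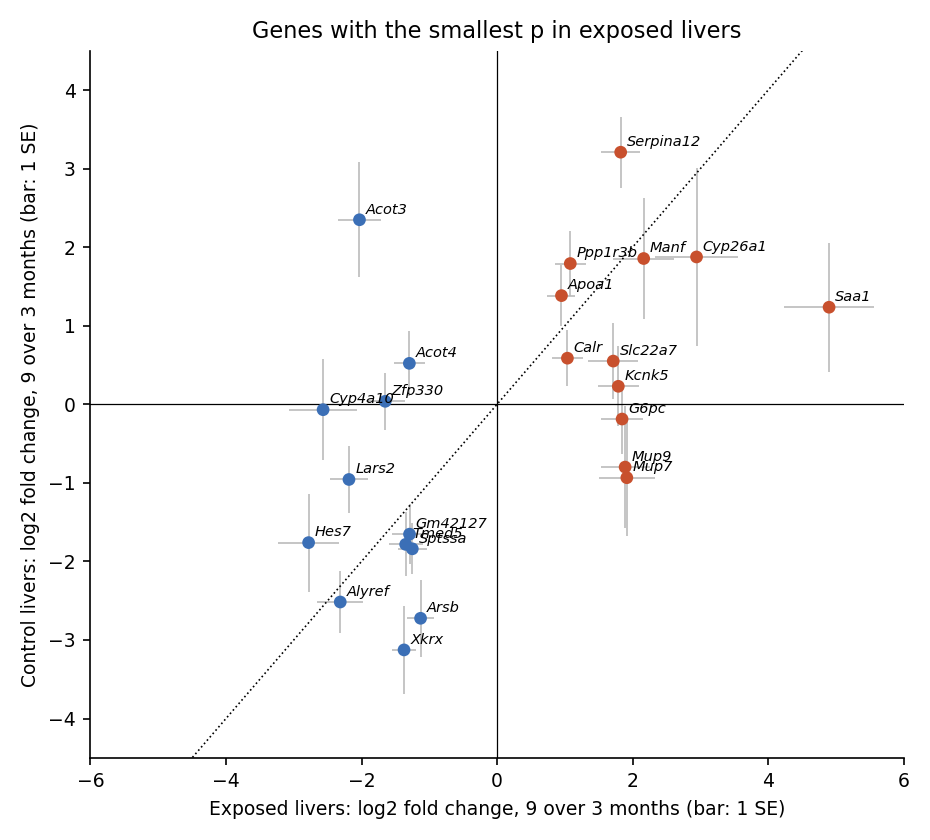
Log2 fold change, 9 over 3 months, in exposed livers (horizontal) and in control livers (vertical), with bars of 1 SE. Shown are 24 genes, the 12 with the smallest p in each direction in exposed livers. They were taken among genes with groups apart and a mean of at least 5 CPM. The dotted line marks equal values; 18 of the 24 points have the same sign on both axes, and Acot3 and Acot4 are lower in exposed livers with positive values in controls.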

How the data were processed

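The authors deposited one table with read counts per RefSeq transcript and TPM per transcript for the input libraries, per the file headers. Per the submitters' processing notes, bcl2fastq, TopHat2 2.0.13 and MACS2 2.1.0.20151222 were used, and mm10 is the mouse build named. Which counter and strand setting were used is not given in the sources used here. TPM, which the authors scaled to sum to 1000000 in each library, served for levels per length. The 12 columns of 6 libraries that match no sample were not used, and pull-down libraries were not analysed here.

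Each of 21769 genes took the transcript with the highest summed count over the 10 input libraries, since isoforms share reads. In R 4.3.3, edgeR 4.0.16 filtered with filterByExpr, scaled by TMM and fitted a quasi-likelihood model to the 6 exposed libraries (dispersion 0.168, with 8.52 prior and 4 residual degrees of freedom). The difference between arms was fitted over 10 libraries. Tests were two-sided with Benjamini-Hochberg adjustment over all genes tested. DESeq2 1.42.0 and limma 3.58.1 were alternatives. Python 3.11.15, pandas 2.3.3 and matplotlib 3.10.9 made summaries and figures. On simulated counts of 11648 genes for this comparison, 20% of genes changed 2-fold were recovered, 62% at 4-fold, 82% at 8-fold and 86% at 16-fold.

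Deviations of same-numbered libraries correlated at 0.02, -0.07 and -0.08, which gave no sign of pairing by replicate number. Such correlations over all genes cannot exclude a pairing or a shared batch, and the labels state neither. The members and 47 gene lists, with 1073 of 1130 symbols matched, were chosen with earlier results of these data known. Named by rule were up to 12 genes per direction (those past the threshold, then by smallest p, with groups that do not overlap and a mean of at least 5 CPM), up to 4 members per list past the threshold or otherwise 2 by smallest p, and Mt1, Mt2, Mettl3 and Mettl14. Further members named as examples were chosen after their values were seen, and some members are not reported here by name.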

Additional observations from a re-analysis of the deposited data

How the results depend on the processing

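Counts of genes past the threshold depended on the processing more than fold changes did. Against 4 genes, DESeq2 called 72 (the same 4 among them), edgeR without a filter on low counts called 200, and an adjusted p under 0.1 called 12. Counts summed over transcripts, which count shared reads repeatedly, gave 0, as did the dispersion from all 10 libraries. The replicate block also gave 0 (smallest edgeR adjusted p 0.0853), though the labels do not state that replicate numbers pair libraries. DESeq2's size factors, a filter of at least 5 CPM, the transcript chosen over 6 libraries and voom with quality weights each gave 4, of which voom shared 2. Leaving out 1 library gave 0 to 9. List members past the threshold, 1 in the main analysis, were 17 with DESeq2, 74 without a filter, 0 with summed transcripts, 0 with the dispersion of 10 libraries, 0 with the replicate block, and 0 to 6 with 1 library left out. For the difference between arms, 0 became 40 with DESeq2, 208 without a filter and 0 to 587 with 1 library left out. Marker lists with groups apart, 1 at first, were 2 with summed transcripts and 1 to 4 with 1 library left out, settings chosen after seeing the data. Of the list medians under alternatives, 631 moved by less than 1 SD between replicates and 43 by more.

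Signs of some weak genes turned. With 1 library left out, log2 fold changes ranged from -0.95 to 0.31 for Mt1, -1.47 to 0.69 for Mt2, -0.59 to 0.014 for Mettl3, -0.31 to 1.03 for Mettl14, -0.995 to 0.16 for Lss, -0.014 to 0.94 for Ptprc, -0.60 to 1.23 for Spp1 and -0.23 to 0.085 for Hsp90b1. Mt2 was -0.51 with voom and -0.54 with the replicate block. The cause of these shifts was not tested. With 3 libraries per group, recovery of 2-fold changes in simulated data was 20%, so most differences of that size would be missed, and smaller ones were not simulated.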
